A study of Mus musculus with 6 samples.

Results

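The insulin and insulin-like growth factor (IGF) signalling genes examined here are 10 rows of a table of 24972 gene rows from mouse heart muscle cells, chosen by name: the ligand gene Igf1, the receptor genes Igf1r, Igf2r and Insr, the adaptor genes Irs1 and Irs2, and the binding protein genes Igfbp3, Igfbp4, Igfbp5 and Igfbp7. All 10 were present and all 10 passed the minimum mean of 10 normalized counts. RNA came from MX1gfp mice, which carry a green fluorescent protein reporter of the interferon-stimulated gene Mx1. In the vehicle group, 3 mice received phosphate-buffered saline, and in the doxorubicin group 3 mice received 1 intraperitoneal dose of 25 mg per kg of doxorubicin, an anthracycline cancer drug that traps topoisomerase II on DNA and can harm the heart. Cells were collected 48 h later from ventricles digested with collagenase, and myocytes were enriched by settling under gravity, without sorting. The labels give no age or sex.

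Insulin and IGF1 act through closely related receptor tyrosine kinases, encoded by Insr and Igf1r. The activated receptors phosphorylate the adaptors IRS1 and IRS2, which recruit phosphoinositide 3-kinase and so switch on the kinase AKT, glucose uptake through the transporter GLUT4 and protein synthesis through mTOR. In the heart this pathway supports physiological growth and cell survival. IGF binding proteins hold IGFs outside the cell and set how much reaches the receptor, and the IGF2 receptor carries IGF2 to the lysosome without signalling as the other receptors do.

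The libraries differed in ways that touch every result below. The deposited values summed to between 7217949 and 7500386 in the vehicle libraries and between 5410780 and 6498373 in the doxorubicin libraries, and every doxorubicin library was shallower in estimated reads than every vehicle library. The estimated reads behind a member ran from 74.7 for Irs1 in doxorubicin replicate 3 to 6840 for Igfbp5 in doxorubicin replicate 2, so that counting error was greatest for Irs1 and Igf1. Doxorubicin replicate 1 lay next to the vehicle libraries on the first principal component of all tested genes (-16.2, against -47.4 to -36.8 in vehicle libraries and 59.0 and 80.2 in doxorubicin replicates 2 and 3). The summed level of 8 cardiomyocyte markers was 657260 to 752330 normalized counts in the vehicle libraries, 563550 in doxorubicin replicate 1, and 194590 and 164580 in replicates 2 and 3. All 8 were abundant in every library, but markers of other cells were present as well. The 8 endothelial markers summed to 16037 to 22444 in vehicle and 29149 to 38602 in doxorubicin libraries, and the 8 macrophage markers to 2161 to 2316 and 3586 to 13891. The 8 fibroblast markers summed to 6236 to 8274.5 and 8639 to 22816. That separation of sums rested on Dcn, and the sum of the other 7 overlapped between groups (3725 to 5369 and 4744 to 5526). Taken singly, 3 of the 8 were higher in every doxorubicin library, Dcn, Pdgfra and Tcf21 (against 19.2% of all genes tested). In bulk RNA of this kind, fewer cells of a type and less RNA per cell cannot be told apart. Xist, the gene that silences an X chromosome, and Y-linked transcripts divided the libraries without regard to treatment: vehicle replicate 3 and doxorubicin replicates 1 and 3 carried Xist, and the other 3 libraries carried the Y-linked gene Ddx3y.

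The binding protein genes gave the widest differences, and their promoters are shown first because Igfbp3, Igfbp4 and Igfbp5 were all higher in every doxorubicin library whereas the related Igfbp7 overlapped between groups. Each sequence is the RefSeq window of GRCm38.p6 from 250 bases before to 50 bases after an annotated start, read 5′ to 3′ on the strand of the gene. Igfbp3 is at chr11:7213874-7214173 (minus strand), Igfbp4 at chr11:99040994-99041293 (plus strand), Igfbp5 at chr1:72874816-72875115 (minus strand) and Igfbp7 at chr5:77407996-77408295 (minus strand). Capitals mark the TATA box letters TATAAA on the gene's strand, and the GC box letters GGGCGG or the FoxO motif letters GTAAACA on either strand.
Igfbp3: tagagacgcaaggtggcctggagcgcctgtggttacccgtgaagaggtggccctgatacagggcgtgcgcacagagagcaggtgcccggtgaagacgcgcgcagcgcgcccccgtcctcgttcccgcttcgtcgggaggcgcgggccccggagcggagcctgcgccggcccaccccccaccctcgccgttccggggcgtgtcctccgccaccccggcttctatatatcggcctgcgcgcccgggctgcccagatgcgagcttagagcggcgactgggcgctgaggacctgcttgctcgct
Igfbp4: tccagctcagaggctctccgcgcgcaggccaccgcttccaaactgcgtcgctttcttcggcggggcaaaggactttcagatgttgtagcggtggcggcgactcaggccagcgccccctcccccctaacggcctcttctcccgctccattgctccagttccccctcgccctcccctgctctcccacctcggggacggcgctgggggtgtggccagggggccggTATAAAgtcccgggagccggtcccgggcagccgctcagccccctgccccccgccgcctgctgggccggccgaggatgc
Igfbp5: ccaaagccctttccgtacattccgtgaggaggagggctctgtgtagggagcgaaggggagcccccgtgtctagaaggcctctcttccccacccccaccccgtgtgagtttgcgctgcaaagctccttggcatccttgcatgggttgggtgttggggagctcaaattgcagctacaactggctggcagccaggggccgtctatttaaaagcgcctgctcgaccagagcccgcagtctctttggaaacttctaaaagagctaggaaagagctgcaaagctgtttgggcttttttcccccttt
Igfbp7: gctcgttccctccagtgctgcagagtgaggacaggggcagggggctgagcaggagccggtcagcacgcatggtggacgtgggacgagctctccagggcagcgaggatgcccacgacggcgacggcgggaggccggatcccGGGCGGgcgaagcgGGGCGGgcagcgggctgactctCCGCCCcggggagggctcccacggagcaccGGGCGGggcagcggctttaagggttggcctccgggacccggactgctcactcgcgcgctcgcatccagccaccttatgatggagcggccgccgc
The Igfbp7 window held 4 GC boxes, while those of Igfbp3, Igfbp4 and Igfbp5 held 0. GGGCGG occurs in 35.7% of 32851 RefSeq promoter windows of the same length. Only the Igfbp4 window, among the 9 members with an entry, held TATAAA, at position -28 from the start (8.32% of all windows). Variants of these letters, such as tatata in the Igfbp3 window and tatttaaa in the Igfbp5 window, were not searched or marked. GTAAACA, the letters bound by FoxO factors, which insulin signalling restrains, and the p53 decamer, named without its letters, both searched on both strands, were found in 0 of the 9 windows (3.65% and 8.36% of all windows). The windows of Igf1r, Igf2r, Irs1, Irs2, Igfbp3, Igfbp4 and Igfbp7 were rich in G and C, at 70.7% to 76.0%, and those of Igf1 and Igfbp5 less so, at 52.3% and 56.3%. The windows of Igf1, Igfbp3 and Igfbp4 lie at annotated starts inside the full span of the gene, and whether these starts are used in these cells was not tested. These are descriptions of letters in the windows and not of binding.

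Differences between doxorubicin and vehicle were tested with limma on log2(normalized count + 1) over 12477 genes, and a fold change on this scale understates the change of low genes. No gene passed a Benjamini-Hochberg adjusted p of 0.05 in either direction (0% higher and 0% lower of all tested genes, and 0 of the 10 members), against 2081 genes higher and 2404 lower at an unadjusted p under 0.05. The smallest adjusted p was 0.0859. In 4 of the 10 members, Igf1, Igfbp3, Igfbp4 and Igfbp5, all 3 doxorubicin values lay above all 3 vehicle values, which was the case in 19.2% of all genes tested, and the same 4 had an unadjusted p under 0.05 (16.7% of all genes were higher and 19.3% lower at that level, and 0 members were lower). In 0 members did the doxorubicin values lie wholly below (22.6% of all genes). The median log2 fold change of the 10 members was 0.47, from -0.71 to 1.73, against -0.0046 over all genes, and it was positive in 6 members and in 49.6% of all genes. Without doxorubicin replicate 1, limma called 5 members higher (Igf1, Igf1r, Igfbp3, Igfbp4 and Igfbp5) and Irs1 lower at an adjusted p under 0.05, where 19.4% of all genes were called higher and 21.8% lower. That library was singled out because its own values lay near the vehicle libraries, so leaving it out tends to narrow the treated spread. Adjusted p values of this fit, here and below, follow that choice and are descriptive only.

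**Figure D1:**
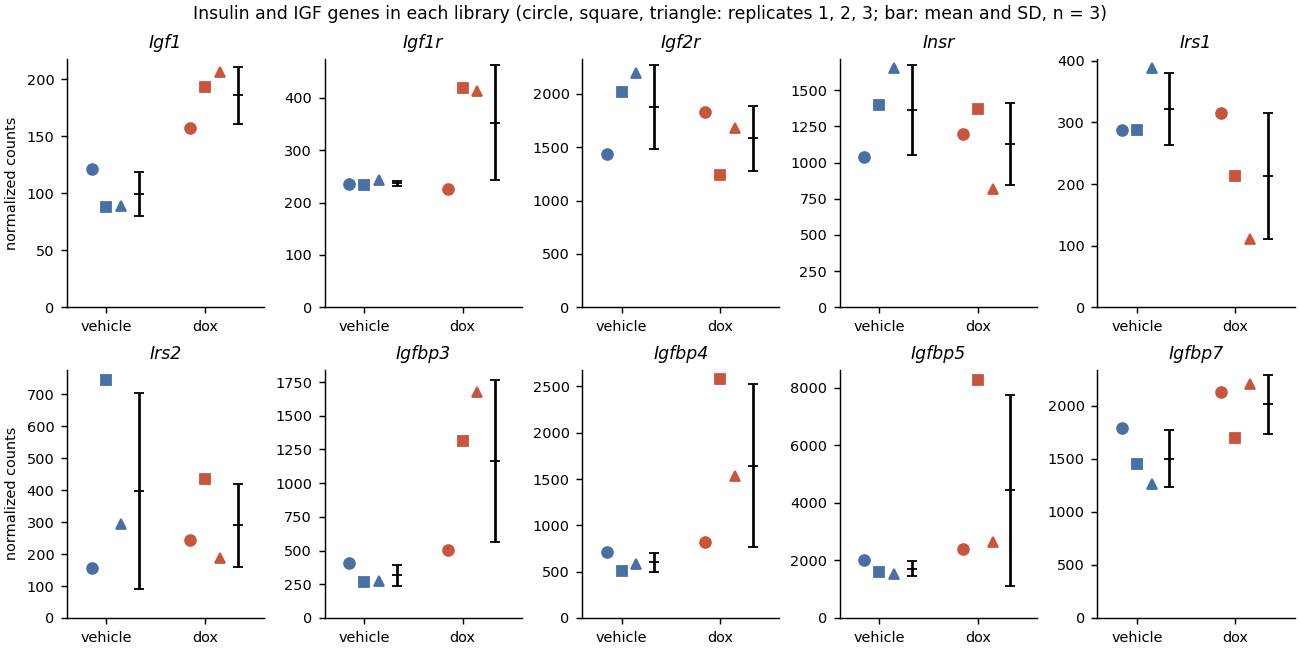
Normalized counts (linear axis from 0) of the 10 members in 3 vehicle libraries (blue) and 3 doxorubicin libraries (red), with the replicate number given by the symbol and the mean and SD of each group beside the points. The doxorubicin points of Igf1, Igfbp3, Igfbp4 and Igfbp5 sit above every vehicle point, while those of the other 6 members overlap the vehicle range.

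Igf1 (chromosome 10, 87858265 to 87937047, GRCm38), which encodes the growth factor itself, had values of 121, 87.8 and 88.9 normalized counts in vehicle libraries, listed by replicate number here and below, and of 158, 193 and 206 in doxorubicin libraries. All 3 treated libraries were above the vehicle libraries, doxorubicin replicate 1 by the least. The means were 99.3 ± 19.1 and 186 ± 25.2 (SD, n = 3 per group), a log2 fold change of 0.90 (standard error 0.19, adjusted p 0.0859 in limma). The doxorubicin libraries deviated from the vehicle mean of Igf1 in the same direction, by 0.68, 0.97 and 1.06 on the log2 scale. Their SD of 0.20 was near the 0.21 of Igfbp7, whose libraries deviated by 0.52, 0.19 and 0.57. The Igf1 difference was 1.02 when doxorubicin replicate 1 was left out (adjusted p 0.0050). Comparing only libraries with Y-linked transcripts gave 0.90 and only those with Xist 1.01, given as values only, since each class holds a single library of 1 group. Macrophages and fibroblasts are known sources of IGF1 in the heart. Of 8 macrophage markers, 7 were also higher in every doxorubicin library (against 19.2% of all genes), with a median log2 fold change of 1.57. Of 8 fibroblast markers 3 were, with a median of 0.56. The part of these cells in the Igf1 difference was not tested.

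Igf2 (chromosome 7, 142650768 to 142666816), the other IGF, had 656, 374 and 424 normalized counts in vehicle libraries and 582, 632 and 595.0 in doxorubicin libraries, with overlapping groups and a log2 fold change of 0.36 (standard error 0.22, adjusted p 0.263 in limma). The insulin genes Ins1 and Ins2 were listed at 0 in all 6 libraries. Igf1 was therefore the only 1 of the 4 ligand genes with groups that did not overlap.

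Igf1r (chromosome 7, 67952257 to 68233668), the receptor for IGF1, was almost constant in the vehicle libraries, at 236, 233 and 242 normalized counts. Doxorubicin replicate 1 had 225, just below them, whereas replicates 2 and 3 had 419 and 412. The group means of 237 ± 4.67 and 352 ± 110 (SD, n = 3 per group) differed by 0.51 on the log2 scale (standard error 0.25, adjusted p 0.174 in limma), about the size of the log2 SD of 0.51 within the treated group. Leaving out doxorubicin replicate 1 gave 0.81 (adjusted p 0.0027). The value of Igf1r thus split the doxorubicin libraries in the same way as the cardiomyocyte marker sum did, with replicate 1 beside the vehicle libraries. Whether the makeup of the libraries accounts for it was not tested.

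Insr (chromosome 8, 3150922 to 3279649), the insulin receptor, had 1035, 1398 and 1652 normalized counts in vehicle libraries and 1195, 1370 and 817 in doxorubicin libraries. Only doxorubicin replicate 3 was below the vehicle range. Its log2 fold change was -0.28 (standard error 0.25, adjusted p 0.449 in limma), with a 95% interval from -0.87 to 0.31. With doxorubicin replicate 1 left out it was -0.34 (adjusted p 0.342), so that Insr and Igf1r were on opposite sides of 0 in both fits. Scaling every library to the same total, which raised the median of all genes to 0.29, put Insr at 0.023, still below that median, and it was -0.064 without doxorubicin replicate 3. The ratio of Insr to Igf1r normalized counts was 4.38, 6.0 and 6.82 in vehicle libraries and 5.31, 3.27 and 1.98 in doxorubicin libraries, so the ratio overlapped between groups through doxorubicin replicate 1. The ratio is one of counts, not corrected for transcript length.

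Igf2r (chromosome 17, 12682406 to 12769706), which clears IGF2 and sorts lysosomal enzymes, had 1439, 2013 and 2191 normalized counts in vehicle libraries and 1827.5, 1243 and 1679 in doxorubicin libraries. The groups overlapped, with doxorubicin replicate 2 lowest. On the log2 scale the difference was -0.24 (standard error 0.23, adjusted p 0.463 in limma), and with equal totals it was 0.057, against the median of 0.29 for all genes. Insrr, which encodes a further receptor of the family, was above 0 in 1 library and was not tested.

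**Figure D2:**
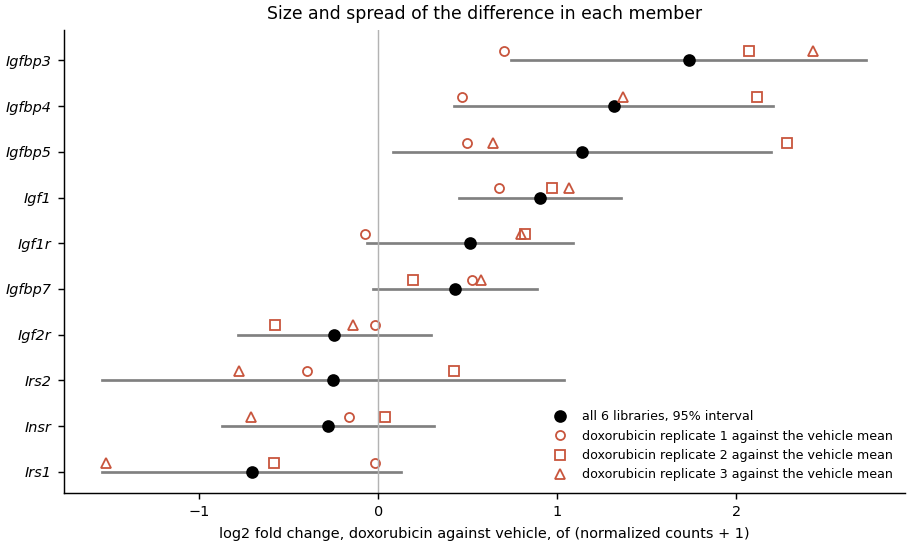
Log2 fold change of each member (black points, with the 95% limma interval as a line) and the deviation of each doxorubicin library from the vehicle mean (open symbols), on the log2(normalized count + 1) scale. Doxorubicin replicate 1 lies nearer to 0 than replicates 2 and 3 for Igf1, Igf1r, Igfbp3, Igfbp4, Igfbp5, Igf2r, Irs1 and Irs2, but not for Insr or Igfbp7, and Igf1 shows the narrowest spread among the members whose interval lies above 0.

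Irs1 (chromosome 1, 82233105 to 82291439), an adaptor that links both receptors to phosphoinositide 3-kinase, had 289, 287 and 389 normalized counts in vehicle libraries and 315, 212 and 110 in doxorubicin libraries. Doxorubicin replicate 1 was inside the vehicle range, and replicates 2 and 3 were below it. The means of 322 ± 58.3 and 212 ± 102 (SD, n = 3 per group) differed by -0.71 on the log2 scale (standard error 0.36, adjusted p 0.192 in limma). Without doxorubicin replicate 1 the difference was -1.05 (adjusted p 0.0185), and Irs1 was then the 1 member called lower. Over all 6 libraries it was -0.41 with equal totals, and leaving out doxorubicin replicate 3 brought it to -0.30.

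Irs2 (chromosome 8, 10984681 to 11008929), the second adaptor and a gene known to respond to fasting and insulin, varied more between vehicle mice than any other member. Its vehicle values were 156, 745 and 293 normalized counts and its doxorubicin values 245, 435 and 189, all inside the vehicle range. The log2 SD among vehicle libraries was 1.13, against 0.028 for Igf1r, which was the steadiest member. The log2 fold change of Irs2 was -0.25 (standard error 0.55, adjusted p 0.765 in limma), and it changed sign when vehicle replicate 2 was left out (0.35), when doxorubicin replicate 3 was left out (0.012) and with equal totals (0.050). No direction can be given for Irs2 at this spread.

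Igfbp3 (chromosome 11, 7206086 to 7215498), which encodes a main carrier of IGFs in blood, had the widest difference of the 10. Vehicle values were 407, 268 and 276 normalized counts, and doxorubicin values were 507, 1312 and 1679. All treated libraries were above the vehicle libraries, replicate 1 narrowly so. The means of 317 ± 78.2 and 1166 ± 599.5 (SD, n = 3 per group) gave a log2 fold change of 1.73 (standard error 0.43, adjusted p 0.0859 in limma). Leaving out doxorubicin replicate 1 gave 2.25 (adjusted p 0.00034), the smallest adjusted p of the 10 in that fit.

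Igfbp4 (chromosome 11, 99040005 to 99052655), a binding protein that restrains IGF action and is cut by the protease PAPP-A, had 709, 509 and 582 normalized counts in vehicle libraries. Doxorubicin replicates 1 to 3 had 823, 2577 and 1532, each above the vehicle range. Its difference was 1.32 on the log2 scale (standard error 0.38, adjusted p 0.0859 in limma), and 1.74 without doxorubicin replicate 1 (adjusted p 0.0013).

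Igfbp5 (chromosome 1, 72858065 to 72874865), which binds IGFs and extracellular matrix, had 2009.5, 1594 and 1524 normalized counts in vehicle libraries and 2389, 8272 and 2643 in doxorubicin libraries. The groups did not overlap, but the size of the difference rested on doxorubicin replicate 2. Over all libraries the log2 fold change was 1.14 (standard error 0.45, adjusted p 0.121 in limma), without that library it was 0.57, and without doxorubicin replicate 1 it was 1.46 (adjusted p 0.0245). Doxorubicin replicate 2 is also the 1 treated library with Y-linked transcripts. Within the Y-linked class the difference was 2.21 and within the Xist class 0.72. These are values only, since each class holds a single library of 1 group.

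Igfbp7 (chromosome 5, 77349240 to 77408045), a relative with low affinity for IGFs that is abundant in blood vessels, had 1789, 1449 and 1259 normalized counts in vehicle libraries and 2131, 1696 and 2206 in doxorubicin libraries. The groups overlapped because doxorubicin replicate 2 was below vehicle replicate 1. The log2 fold change was 0.43 (standard error 0.20, adjusted p 0.158 in limma) and, unlike the other 3 binding protein members, it was no higher without doxorubicin replicate 1 (0.38, adjusted p 0.166). Of 8 endothelial markers, 5 were higher in every doxorubicin library (against 19.2% of all genes), with a median log2 fold change of 0.66. The part of endothelial cells in the Igfbp7 value was not tested.

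The mixture of binding protein transcripts differed between libraries. Igfbp6 (chromosome 15, 102144186 to 102149512), a binding protein that prefers IGF2 and was chosen after its values were seen, had 200.3, 149 and 113 normalized counts in vehicle libraries and 227, 815 and 507 in doxorubicin libraries, a log2 fold change of 1.59 (standard error 0.44, adjusted p 0.0859 in limma). Igfbp1 was listed at 0 in all libraries and Igfbp2 was below 1 in all. The summed normalized counts of Igfbp3 to Igfbp7 were 5115, 3969 and 3753.5 in vehicle libraries and 6077, 14673 and 8566 in doxorubicin libraries. Igfbp7 made up 33.5% to 36.5% of that sum in vehicle libraries and 35.1% in doxorubicin replicate 1, but 11.6% in replicate 2 and 25.8% in replicate 3. Igfbp3 made up 6.75% to 7.96% in vehicle libraries and 8.34%, 8.94% and 19.6% in the treated libraries, above the vehicle range in each. Igfbp5 made up 56.4% in doxorubicin replicate 2 and 30.9% in replicate 3, against 39.3% to 40.6% in the 3 vehicle libraries. Relative to the vehicle mean, Igfbp6 stood highest in doxorubicin replicate 2, at 2.43 on the log2 scale, and Igfbp3 in replicate 3, also at 2.43.

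**Figure D3:**
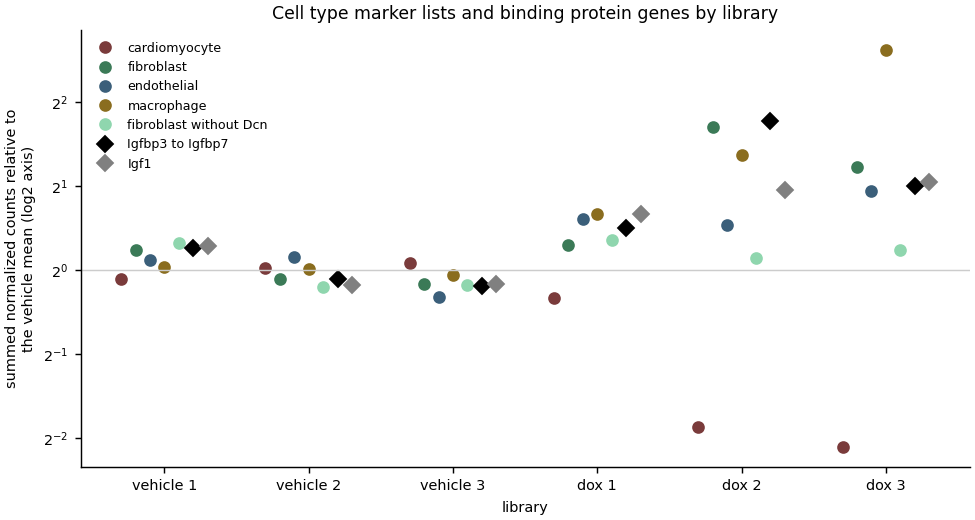
Summed normalized counts of 4 marker lists and of the fibroblast list without Dcn (circles), of Igfbp3 to Igfbp7 and of Igf1 (diamonds) in each library, relative to the mean of the 3 vehicle libraries on a log2 axis. The cardiomyocyte sum is lowest and the binding protein sum highest in doxorubicin replicates 2 and 3, and the macrophage sum is highest in doxorubicin replicate 3. The height of the fibroblast sum in replicates 2 and 3 is that of Dcn, without which the sum of the list overlaps between groups.

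Dcn, which encodes the matrix proteoglycan decorin, had 2905, 2767 and 2446 normalized counts in vehicle libraries and 3113, 18072 and 11326 in doxorubicin libraries, lowest in vehicle replicate 3 and highest in doxorubicin replicate 2, as the binding protein sum was. The sum of the other 7 fibroblast markers was 5369, 3725 and 3790 in vehicle libraries and 5526, 4744 and 5080 in doxorubicin libraries, with overlapping groups and with doxorubicin replicate 2 the lowest of the treated libraries. Within the list, Dcn and Pdgfra had log2 fold changes of 1.67 and 1.19, but Col1a1 and Col3a1 had 0.18 and -0.42, so the list did not move as a block. The part of fibroblasts in the binding protein values was not tested.

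Levels of different genes were compared per kilobase of exon, taking the merged exons of GENCODE M21 basic transcripts. In vehicle libraries Igfbp7 was highest at 1240 ± 222 normalized counts per kilobase (SD, n = 3), followed by Igfbp5 at 285 ± 43.7. Next came Igf2r at 212 ± 44.2, Igfbp4 at 153 ± 25.9, Insr at 146 ± 33.1, Igfbp3 at 101 ± 25.0, Irs2 at 62.9 ± 48.7 and Irs1 at 35.2 ± 6.37, and in each neighbouring pair of these from Igf2r to Irs1 the libraries overlapped. Igf1r at 20.8 ± 0.41 and Igf1 at 10.0 ± 1.93 were lowest and separate from their neighbours. In doxorubicin libraries Igfbp4 (419 ± 225) and Igfbp3 (373 ± 192) stood above Igf2r (178 ± 34.2) in the order of the means, although the library ranges of Igfbp3 and Igf2r overlapped. Igf1 remained the lowest of the 10 at 18.7 ± 2.55, and its range overlapped that of Irs1 at 23.2 ± 11.2.

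The wider pathway was taken as 72 genes in 9 lists by role, of which 62 had a mean of at least 10 and were tested. At an adjusted p under 0.05, 0 were called in either direction. In 11 (17.7%, against 19.2% of all genes) every doxorubicin value was higher, and in 10 (16.1%, against 22.6%) every doxorubicin value was lower. Their median log2 fold change was -0.016. Counted as a whole, the pathway was therefore near the background of the table. Without doxorubicin replicate 1, 11 were called higher (17.7%, against 19.4%) and 11 lower (17.7%, against 21.8%).

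**Figure D4:**
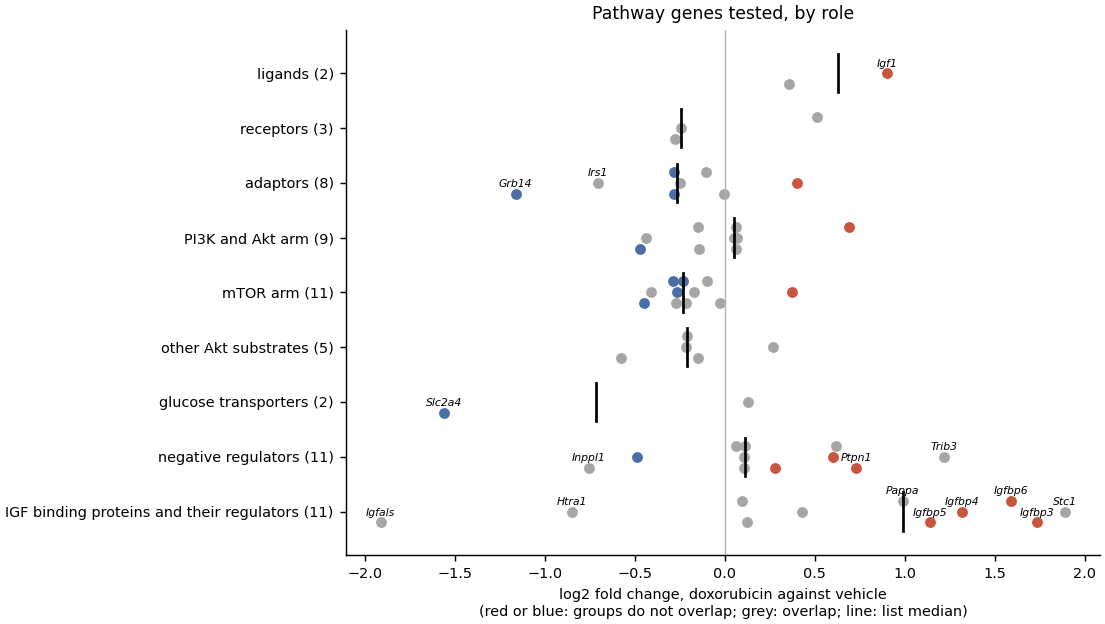
Log2 fold change of the 62 tested pathway genes by role, with the number tested in brackets, the list median as a vertical line and colour for genes whose groups do not overlap. The binding protein list has the highest median, 0.99, with Igfals at the low end, and 10 of the 11 genes of the mTOR list lie below 0 (2 with equal totals).

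Of 10 adaptor genes, 8 were tested, and 7 had a negative and 1 a positive log2 fold change, with a median of -0.27. Among the negative ones, Sos1 was at -0.0027, beside the median of all genes (-0.0046). With equal totals 2 of the 8 were negative and 6 lay below the median of all genes. Every doxorubicin value was lower in 3 of the 8, Grb2, Gab1 and Grb14 (37.5%, against 22.6% of all genes). In 1 every doxorubicin value was higher (12.5%, against 19.2%). Grb14 (chromosome 2, 64912476 to 65022766), an adaptor that binds and inhibits the insulin receptor, was lower in every doxorubicin library. Its values were 1750, 1516 and 1762 normalized counts in vehicle and 1263.5, 705 and 466 in doxorubicin libraries, a log2 fold change of -1.16 (standard error 0.33, adjusted p 0.0859 in limma, and 0.00096 without doxorubicin replicate 1). Shc1, which couples receptors to the Ras pathway, was higher in every doxorubicin library, with a log2 fold change of 0.40 (adjusted p 0.108).

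The 9 genes of the phosphoinositide 3-kinase and AKT arm were all tested, with log2 fold changes whose median was 0.053. Akt1 (chromosome 12, 112653821 to 112674884) had 2251, 1958 and 2213 normalized counts in vehicle and 2222, 1206 and 1454 in doxorubicin libraries, with overlapping groups and a log2 fold change of -0.44 (standard error 0.24, adjusted p 0.22 in limma). Akt2 (chromosome 7, 27591552 to 27640826), the isoform most tied to glucose uptake, had 1957.5, 1649 and 2217 in vehicle and 1567, 1617 and 1054.5 in doxorubicin libraries, where all 3 were lower (log2 fold change -0.47, standard error 0.22, adjusted p 0.162 in limma). When doxorubicin replicate 1 was left out, Akt1 was called lower (-0.69, adjusted p 0.0124) and Akt2 was not called (-0.56, adjusted p 0.0767). Pik3r1, which encodes the regulatory subunit p85 alpha, had a log2 fold change of -0.14 (adjusted p 0.523), with overlapping groups.

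The 11 genes of the mTOR arm had small differences, from -0.45 to 0.37, and 10 of them were negative, with a median of -0.24. With equal totals 2 were negative, but 10 still lay below the median of all genes. Tsc2 (chromosome 17, 24595816 to 24632676), a brake on mTOR that AKT inactivates, had 1050, 1116 and 1240 normalized counts in vehicle and 1029, 791 and 702 in doxorubicin libraries (log2 fold change -0.45, standard error 0.18, adjusted p 0.125 in limma). With equal totals it was -0.15, and without doxorubicin replicate 1 it was called lower (-0.60, adjusted p 0.0145). Every doxorubicin value was lower in 4 of the 11 genes (36.4%, against 22.6% of all genes), namely Tsc2, its partner Tsc1, Mlst8, a subunit of both mTOR complexes, and the kinase gene Rps6kb1. Without doxorubicin replicate 1, 2 of the 11 were called lower (18.2%, against 21.8%), Tsc2 and Rptor, a subunit of mTOR complex 1 (-0.58, adjusted p 0.0321). Rictor, a subunit of mTOR complex 2, was the 1 gene of the arm above 0, at 0.37 (adjusted p 0.179), with all doxorubicin values above all vehicle values.

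Slc2a4 (chromosome 11, 69942286 to 69948216), which encodes the insulin-responsive glucose transporter GLUT4, had the widest difference of the intracellular pathway. Vehicle values were 3030, 3689 and 3896 normalized counts and doxorubicin values 2683, 747 and 847, all lower than vehicle and lowest in replicates 2 and 3. The log2 fold change was -1.56 (standard error 0.46, adjusted p 0.0859 in limma) and -2.14 without doxorubicin replicate 1 (adjusted p 0.00021). GLUT4 is a muscle and fat protein. The cardiomyocyte markers had a median log2 fold change of -1.53, with 6 of 8 lower in every doxorubicin library (against 22.6% of all genes). Whether Slc2a4 differed beyond the share of myocyte RNA was not tested. Slc2a1, the gene of the basal transporter GLUT1, had 146, 128 and 131 in vehicle and 126, 142 and 181 in doxorubicin libraries, with a log2 fold change of 0.13 (standard error 0.18, adjusted p 0.623). Tbc1d4, whose protein AKT phosphorylates to release GLUT4 to the surface, had 712, 953 and 956 in vehicle and 988, 459 and 432 in doxorubicin libraries (log2 fold change -0.58, standard error 0.32, adjusted p 0.228), with doxorubicin replicate 1 above the vehicle range and the other two below it. Without doxorubicin replicate 1 it was called lower (-0.96, adjusted p 0.0039).

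Of 11 negative regulators, 9 had a positive log2 fold change (8 after quantile normalization) and 3 had every doxorubicin value above the vehicle range (27.3%, against 19.2% of all genes). Without doxorubicin replicate 1, 2 were called higher (18.2%, against 19.4%) and 2 lower (18.2%, against 21.8%). Ptpn1 (chromosome 2, 167930750 to 167979385), a phosphatase that dephosphorylates the insulin receptor, had 244, 179 and 207 normalized counts in vehicle and 253, 420 and 391 in doxorubicin libraries (log2 fold change 0.73, standard error 0.23, adjusted p 0.0863 in limma, and 0.0036 without doxorubicin replicate 1). Trib3 (chromosome 2, 152337425 to 152344060), a pseudokinase that binds AKT and is induced by cell stress, had 31.3, 24.6 and 34.0 in vehicle and 26.3, 119 and 110.0 in doxorubicin libraries. Its log2 fold change was 1.22 (standard error 0.55, adjusted p 0.152 in limma), and 1.91 without doxorubicin replicate 1 (adjusted p 0.00076). The 2 called lower without that library were Inppl1, a lipid phosphatase gene (-1.07, adjusted p 0.0029), and Ide, the gene of insulin-degrading enzyme (-0.64, adjusted p 0.0083). With all 6 libraries Inppl1 overlapped between groups (-0.76, adjusted p 0.108), and Ide was lower in every doxorubicin library (-0.49, adjusted p 0.0962).

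Of 16 binding protein genes and their regulators, 11 were tested, and 9 had a positive log2 fold change (7 after quantile normalization), with a median of 0.99, which is the value of Pappa. The list also took in Igf2bp1, Igf2bp2 and Igf2bp3, which encode RNA-binding proteins and not IGF binding proteins. Of these only Igf2bp2 was tested, at 0.12. Igfals (chromosome 17, 24877844 to 24882011), whose protein holds IGF and IGFBP3 in a ternary complex in blood, had 63.7, 58.4 and 63.4 normalized counts in vehicle libraries, 66.6 in doxorubicin replicate 1, and 4.90 and 10.6 in replicates 2 and 3. The log2 fold change was -1.91 (standard error 0.80, adjusted p 0.131 in limma), -2.92 without doxorubicin replicate 1 (adjusted p 0.00076) and -1.16 without doxorubicin replicate 2 (adjusted p 0.277). Pappa and Stc1, chosen after their values were seen, encode the protease of IGFBP4 and an inhibitor of that protease. Pappa (chromosome 4, 65124174 to 65357509) was low, at 2.65 to 10.6 in vehicle and 3.15, 48.1 and 13.1 in doxorubicin libraries. The Pappa groups overlapped, with a log2 fold change of 0.99 (standard error 0.94, adjusted p 0.467 in limma). Stc1 (chromosome 14, 69029289 to 69041401) had 22.2 to 31.8 in vehicle and 21.0, 432 and 114 in doxorubicin libraries, with a log2 fold change of 1.89 (standard error 0.93, adjusted p 0.18 in limma) that was 3.01 without doxorubicin replicate 1 (adjusted p 0.0025) and 0.86 without doxorubicin replicate 2 (adjusted p 0.396). Stc2 and Htra1 of the same list overlapped between groups, at 0.094 (adjusted p 0.853 in limma) and -0.85 (adjusted p 0.0989). Without doxorubicin replicate 1 they were at 0.36 (adjusted p 0.344) and -1.20 (adjusted p 0.0014). Doxorubicin replicate 2 was highest for Pappa, Stc1, Igfbp4, Igfbp5 and Igfbp6.

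Genes most like Igf1, Igf1r and Insr in pattern were taken by the root mean square distance over the 6 libraries between log2 profiles set relative to the vehicle mean, among 8224 genes with a mean of at least 100. Nearest to Igf1 were Frmd8, Tcaf1 and Homer3, at distances of 0.0855, 0.0881 and 0.0957, against a median of 0.756 over all candidates. Nearest to Igf1r were Ctdsp2, the cell cycle inhibitor gene Cdkn1b and Syf2, at 0.0496, 0.0671 and 0.0691, against a median of 0.573. Near to Insr were Corin, which encodes the protease that activates atrial natriuretic peptide, and Acadsb, an acyl-CoA dehydrogenase gene, at 0.0945 and 0.1, against a median of 0.451. With so many candidates and 6 libraries, some genes lie close to any profile.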

How the data were processed

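RNA was measured in 6 libraries, 1 column each. The authors deposited normalized read counts per gene, a signal that is never negative. Per the labels' protocols and the submitters' processing notes, reads were aligned with STAR 2.6.1a in BaseSpace RNAseq Alignment 2.0.2 to mm10 with RefSeq genes, followed by RNA-seq Differential Expression 1.0.1, and Salmon is named without a role. Strand use, filters and normalization method: not given in the sources used here. Median-of-ratios factors computed from the deposited values were the same in every library (1.01), so that scaling changed nothing. Low values lay within 0.1 step of a whole multiple of a library's step in 80.0% to 92.5% of cases, too few for whole reads to be recovered, so no count test was used. Dividing totals by the step gave about 3670000 to 11400000 reads per library.

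Genes with a mean of at least 10 entered a limma fit (version 3.58.1, R 4.3.3) on log2(value + 1) with a mean-dependent prior variance, two-sided, with Benjamini-Hochberg adjustment over all 12477 genes at 0.05. The script was tested on data simulated with the spread of the vehicle libraries in both groups. That test does not cover groups of unequal spread. No exact permutation test is given, since 0.1 is the smallest p that 3 libraries against 3 allow. Fits that leave out a library applied the minimum mean to the remaining libraries and assumed the same spread in both groups. The members and lists were chosen with earlier results of these data known. Named besides the members were Igf2, Slc2a4, Slc2a1, Pik3r1, Akt1, Akt2 and, per list, the genes with the smallest p and the largest change, apart from a few genes not reported here; Shc1, Rictor, Rptor, Mlst8, Tsc1, Rps6kb1, Inppl1, Ide, Dcn, Pdgfra, Col1a1, Col3a1, Insrr, Ins1, Ins2, Igfbp1, Igfbp2, Igfbp6, Stc1 and Pappa were named after their values were seen. Of marker lists, atrial, mural, neutrophil, lymphocyte and erythroid markers had median log2 fold changes of 0.91, -0.22, 3.84, none tested, and -0.85. Doxorubicin replicate 1 stood above every other library in the erythroid sum, at 9027, against 1211 to 2104 in vehicle libraries. Doxorubicin replicates 2 and 3 had 250 and 421. The atrial sum was 1426 in doxorubicin replicate 1, against 456 to 526 in vehicle libraries and 368 and 692 in replicates 2 and 3. Alternatives covered pseudocount, filter, scaling, moderation, weights, covariate, replicate block and each left-out library. Rows whose names read as dates (26) are not reported by name. Coordinates are RefSeq GRCm38.p6, the assembly of mm10, counted from 1. Plots used matplotlib 3.10.9 under Python 3.11.15.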

Additional observations from a re-analysis of the deposited data

How the results depend on the processing

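Limma called 0 genes higher and 0 lower with all 6 unweighted libraries at each pseudocount, filter, scaling, moderation and covariate tried. Doxorubicin replicate 1 decided the count: leaving out 1 library gave 0 to 2421 genes higher and 0 to 2715 lower, the upper end being the fit without it, and library weights estimated by limma (0.277 for that library) called 1954 higher and 2318 lower. With the replicate number as a block, 0 genes were called in either direction (smallest adjusted p 0.115). The labels do not tie equal numbers, and same-numbered libraries did not deviate together (correlations over genes of -0.128, 0.033 and -0.0928). Scaling to equal totals moved the median of all genes to 0.29 and, relative to 0, turned Igf2r to 0.057, Insr to 0.023, Irs2 to 0.050 and Pik3r1 to 0.16, all below that median. Over the fits that leave out 1 library, Irs2 ran from -0.78 (without vehicle replicate 1) to 0.35 (without vehicle replicate 2) and was 0.012 without doxorubicin replicate 3. Slc2a1 ran from -0.014 (without doxorubicin replicate 3) to 0.25 (without doxorubicin replicate 1). Igf1, Igf1r, Irs1, Igfbp3, Igfbp4, Igfbp5 and Igfbp7 kept their direction in all 18 alternatives. Adjusted p ran from 0.0050 to 0.256 for Igf1, from 0.00034 to 0.256 for Igfbp3, from 0.0013 to 0.256 for Igfbp4, from 0.0089 to 0.301 for Igfbp5, from 0.0027 to 0.403 for Igf1r and from 0.0185 to 0.442 for Irs1. Library weights also called Igf1, Igf1r, Igfbp3, Igfbp4 and Igfbp5 higher. The alternatives for pathway genes that are no members, and the marker sums without the most abundant gene of each list, were chosen after the data were seen. A fit of treatment by Xist or Y-linked class, also chosen then, is not given because 1 group in each class is a single library. Treated libraries were shallower than vehicle libraries, so depth and treatment cannot be told apart.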
